A study of Mus musculus with 10 samples.

Results

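Type VI collagen, type VIII collagen and the fibril-associated collagens XII, XIV and XVI were followed at the RNA level in mouse femurs through the 10 genes Col6a1, Col6a2, Col6a3, Col6a5, Col6a6, Col8a1, Col8a2, Col12a1, Col14a1 and Col16a1. These 10 of the 38962 genes in the count table were chosen by name from the type VI and fibril-associated chains not typical of cartilage. Col6a4, Col19a1, Col20a1 and Col22a1 are not among them and are given below. All 10 passed the filter on low counts that kept 22088 genes for testing. The 2 type VIII genes are neither type VI nor fibril-associated chains by textbook classification, and they are described separately here.

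The femurs came from male C57BL/6J mice, 5 of them aged 2 months (young) and 5 aged 22 months (aged), with no treatment or engineered allele in either group. Bones were flushed of marrow and pulverized, and the RNA of each mouse was sequenced as 1 library. Young mice were bought from the Jackson Laboratory, whereas aged mice came from the National Institute of Aging colony and were aged further in house, so age and supplier cannot be told apart. The question for these genes was whether their RNA level differs between aged and young bone.

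Type VI collagen is built from 3 different chains, the products of Col6a1, Col6a2 and Col6a3, that coil into a monomer and assemble into beaded filaments around cells. The products of Col6a5 and Col6a6 are alternative chains that can take the place of the Col6a3 product. Fibril-associated collagens form no fibrils of their own but lie on the surface of fibrils of other collagens, and type XII is known from periosteum, tendon and ligament. The short chains of type VIII form hexagonal networks known from the cornea and from vessel walls.

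Libraries held 33447009 to 40395050 counts in young and 31788232 to 45075335 in aged mice. Levels are given as CPM, the counts of a gene brought to a common library size after scaling by the trimmed mean of M values (TMM), and differences as log2 fold changes of aged over young from edgeR's quasi-likelihood test, in which the Benjamini-Hochberg adjustment covered all 22088 genes and a gene was called at an adjusted p of 0.05 or below. The median log2 fold change of all genes tested was 0.01. In bulk bone, fewer cells of a type and less RNA per cell cannot be told apart. The library of aged mouse 4 stood apart from the other aged libraries, with the lowest level of its group for 8 of the 10 genes and the highest for Col14a1, and for the 10 genes values without it are given where they differ in call or direction.

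Of the 10 genes, 8 were lower in aged bone, 0 were higher and 2 did not pass, with a median log2 fold change of -1.45. The largest fall was that of the type XII chain Col12a1, which was 5.55-fold lower, and the type VI chains Col6a1, Col6a2 and Col6a3 fell together, with log2 fold changes of -1.53, -1.43 and -1.47. Over all genes tested, 3.61% were called lower and 3.68% higher. No gene of the 10 was higher at an unadjusted p under 0.05 with edgeR either, and the count of higher genes was 0 also with DESeq2 and limma-voom. In 7 of the 10 genes every aged library lay below every young library, against 4.12% of all genes tested. The 10 genes and the gene lists used below were chosen with earlier results of these data known. The shares over all genes therefore give no test of enrichment.

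**Figure D1:**
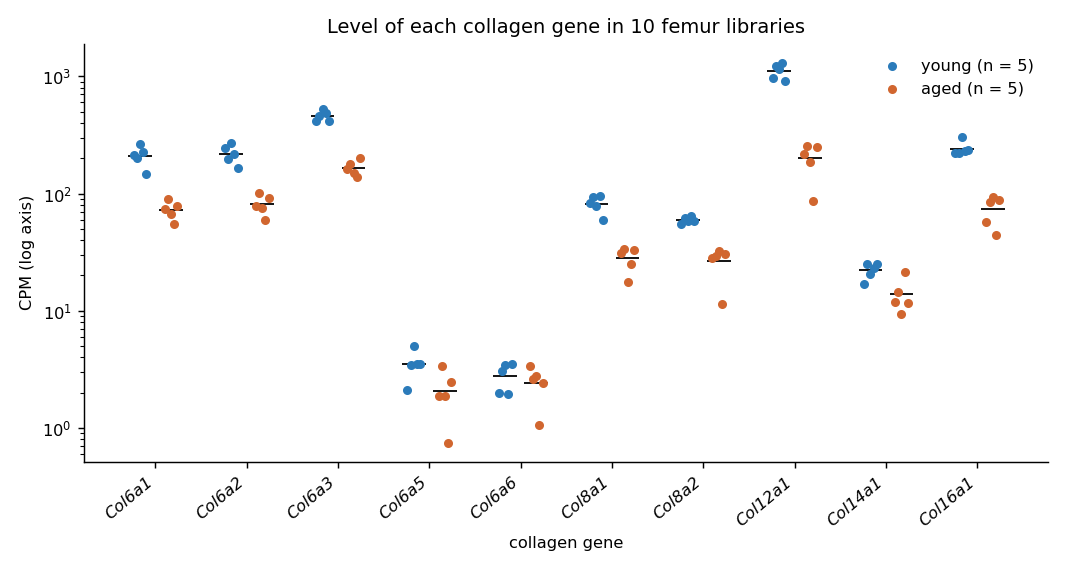
Level of each of the 10 collagen genes in CPM on a log axis, with a point for each library (5 young, 5 aged) and a line at the group mean. The groups are separated for Col6a1, Col6a2, Col6a3, Col8a1, Col8a2, Col12a1 and Col16a1, they overlap for Col6a5, Col6a6 and Col14a1, and the lowest aged point of Col12a1 (86.6 CPM) is that of aged mouse 4.

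The 3 main chains of type VI collagen are encoded at 2 places in the genome (coordinates on GRCm38). Col6a1 (ENSMUSG00000001119.7) lies on the minus strand of chromosome 10 from 76708792 to 76726168. It has 35 exons, counted here and below in the transcript with the most exons. Col6a2 (ENSMUSG00000020241.13, 28 exons) is its neighbour on the same strand, from 76595762 to 76623630, with 85161 bases between them. Col6a3 (ENSMUSG00000048126.16, 44 exons) lies apart from them on the minus strand of chromosome 1 from 90765923 to 90843971.

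Because these 3 genes of 1 filament had similar log2 fold changes, their promoter windows are shown. Each holds the 250 bases before and the 50 from a start given by RefSeq on GRCm38.p6. They are printed for the minus strand, 5′ to 3′, with every CCTCCC on either strand in capitals. Windows were matched by symbol for 8 of the 10 genes (9 windows). Col6a2 has 2 overlapping windows, and the one from 76623581 is the one placed at the start of the gene in the count table, 76623630. The Col6a3 window is also placed at the start in the count table, 90843971. The start used for the Col6a1 window lies inside the gene as the count table gives it, with a start at 76726168. More than 50 bases of the Col6a1 window therefore lie within that gene. Col12a1 and Col14a1 were not matched.
Col6a1, chr10:76725995-76726294: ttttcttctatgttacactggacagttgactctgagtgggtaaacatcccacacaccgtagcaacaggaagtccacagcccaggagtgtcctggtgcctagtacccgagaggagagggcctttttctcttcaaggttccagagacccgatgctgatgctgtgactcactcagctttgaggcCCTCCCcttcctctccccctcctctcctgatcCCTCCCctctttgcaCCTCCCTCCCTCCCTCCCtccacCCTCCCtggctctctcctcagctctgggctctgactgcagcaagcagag
Col6a2, chr10:76623355-76623654: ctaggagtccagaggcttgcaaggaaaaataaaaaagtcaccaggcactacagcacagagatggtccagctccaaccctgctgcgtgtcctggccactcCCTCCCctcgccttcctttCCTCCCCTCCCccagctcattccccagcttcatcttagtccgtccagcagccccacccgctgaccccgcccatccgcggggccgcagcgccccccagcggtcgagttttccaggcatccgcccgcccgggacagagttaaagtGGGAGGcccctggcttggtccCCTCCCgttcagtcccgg
Col6a2, chr10:76623581-76623880: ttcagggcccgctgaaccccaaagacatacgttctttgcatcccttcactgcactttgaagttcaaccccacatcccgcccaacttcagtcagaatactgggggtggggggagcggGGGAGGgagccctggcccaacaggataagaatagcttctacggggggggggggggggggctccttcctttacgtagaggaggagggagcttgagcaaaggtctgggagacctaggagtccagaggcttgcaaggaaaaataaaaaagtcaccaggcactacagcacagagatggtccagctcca
Col6a3, chr1:90843922-90844221: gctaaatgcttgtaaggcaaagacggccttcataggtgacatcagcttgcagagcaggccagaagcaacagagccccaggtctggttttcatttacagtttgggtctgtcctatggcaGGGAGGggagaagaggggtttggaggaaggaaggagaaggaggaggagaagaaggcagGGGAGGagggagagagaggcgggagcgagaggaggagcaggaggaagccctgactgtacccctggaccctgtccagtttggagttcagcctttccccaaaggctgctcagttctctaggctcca

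The motif CCTCCC, chosen after these sequences were seen, occurs 7 times in the Col6a1 window (overlapping copies counted), 5 times in the Col6a2 window from 76623355, 1 time in the Col6a2 window from 76623581 and 2 times in the Col6a3 window. At least 1 copy is present in 6 of the 9 windows and in 42.4% of all 32851 promoter windows of the table, and at least 5 copies in 2 of the 9 and in 1.02% of all. The TATA box letters TATAAA, searched on both strands, were in 0 of the 9 windows and 13.6% of all windows. GGGCGG was in 7 of the 9 and 35.7% of all, and CCAAT in 1 of the 9 (Col16a1) and 37.4% of all. These counts describe letters in windows and say nothing about which factors bind there.

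Col6a1 was measured at 214, 199, 264, 228 and 147 CPM in young mice 1 to 5 and at 74.2, 90.3, 66.8, 54.6 and 77.8 CPM in aged mice 1 to 5. The lowest young library lay above the highest aged library. Col6a1 fell from 211 ± 42.7 to 72.7 ± 13.2 CPM (SD, n = 5 per group; log2 fold change -1.53 ± 0.16 SE, edgeR adjusted p = 2.3e-04).

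Its neighbour Col6a2 gave 245, 198, 268, 218 and 165 CPM in young and 77.7, 101, 75.5, 60.0 and 91.3 CPM in aged mice. Young mice 3 and 5 were, as for Col6a1, the highest and the lowest of their group, and the groups did not overlap. Col6a2 fell from 219 ± 40.1 to 81.1 ± 15.8 CPM (SD, n = 5 per group; log2 fold change -1.43 ± 0.16 SE, edgeR adjusted p = 2.7e-04).

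Col6a3, whose product is the longest of the 3 main chains, reached 419, 458, 526, 483 and 414 CPM in young and 161, 178, 150.3, 139 and 199 CPM in aged mice. It had the smallest spread of the 3 genes relative to the mean in both groups, with every aged library far below the lowest young library. The fall from 460.0 ± 46.4 to 166 ± 23.7 CPM (SD, n = 5 per group; log2 fold change -1.47 ± 0.12 SE, edgeR adjusted p = 3.9e-05) ranked 6 by p among all genes tested.

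The proportions of the 3 genes were compared within each library, and neither ratio passed. The ratio of Col6a2 to Col6a1 counts was 1.05 ± 0.0815 in young and 1.11 ± 0.0465 in aged bone (exact two-sided permutation test, p = 0.143, adjusted p = 0.238 over 5 ratios). The ratio of Col6a3 to Col6a1 was 2.23 ± 0.349 in young and 2.30 ± 0.253 in aged bone (exact two-sided permutation test, p = 0.690, adjusted p = 0.690). A ratio of 2 genes within a library does not depend on how libraries are scaled.

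The genes of the alternative chains, Col6a5 and Col6a6, lie next to each other on the minus strand of chromosome 9, from 105856078 to 105960643 (ENSMUSG00000091345.9) and from 105687809 to 105828160 (ENSMUSG00000043719.14). Both had few counts beside the 3 main chains, with 32 to 171 counts per library for Col6a5 and 45 to 148 for Col6a6. Per kilobase of exonic length they reached 0.374 ± 0.109 and 0.304 ± 0.0832 CPM in young bone, against 38.4 ± 3.88 CPM per kilobase for Col6a3.

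Col6a5 stood at 2.13, 3.45, 5.02, 3.48 and 3.51 CPM in young and at 1.87, 3.40, 1.86, 0.749 and 2.48 CPM in aged mice. The groups overlapped, since young mouse 1 lay below aged mice 2 and 5. The difference did not pass (log2 fold change -0.75 ± 0.32 SE, edgeR adjusted p = 0.167).

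Col6a6 stood at 1.97, 3.07, 3.43, 1.96 and 3.49 CPM in young and at 3.35, 2.62, 2.77, 1.05 and 2.40 CPM in aged mice. Aged mouse 4 was the lowest library and the other aged libraries lay within the young range. The log2 fold change was -0.19 (standard error 0.27, edgeR adjusted p = 0.698), and without aged mouse 4 it was 0.01 (edgeR adjusted p = 0.991).

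The counts of Col6a5 and Col6a6 together came to 0.0137 ± 0.00305 of those of Col6a3 in young and 0.0269 ± 0.00856 in aged bone. The ratio differed by 0.93 on the log2 scale but did not pass once adjusted over the 5 ratios (exact two-sided permutation test, p = 0.0317, adjusted p = 0.0794). Aged mouse 4, at 0.0129, was the only aged library within the young range of 0.00979 to 0.0169, and without it the log2 difference was 1.17 (exact permutation test, adjusted p = 0.0397). A further type VI gene that is not among the 10, Col6a4, was near the floor of the data at 0.310 ± 0.102 CPM in young and 0.493 ± 0.0968 CPM in aged bone (edgeR adjusted p = 0.172).

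The type VIII chains are encoded by Col8a1 on the minus strand of chromosome 16 from 57624258 to 57754737 (ENSMUSG00000068196.5) and Col8a2 on the plus strand of chromosome 4 from 126286793 to 126314330 (ENSMUSG00000056174.8), each with 4 exons in the transcript with the most exons. Col8a1 was at 83.2, 93.5, 77.7, 95.4 and 59.1 CPM in young and at 31.1, 33.9, 17.7, 24.8 and 33.0 CPM in aged mice. Young mouse 5, the lowest of its group as for Col6a1 and Col6a2, still lay above every aged library. Col8a1 fell from 81.8 ± 14.6 to 28.1 ± 6.83 CPM (SD, n = 5 per group; log2 fold change -1.54 ± 0.18 SE, edgeR adjusted p = 4.2e-04).

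Col8a2 was at 54.5, 61.7, 57.8, 63.9 and 58.0 CPM in young and at 28.4, 29.1, 32.6, 11.4 and 30.3 CPM in aged mice. Aged mouse 4 lay far below the other aged libraries, which were close to each other, and the groups did not overlap. Col8a2 fell from 59.2 ± 3.69 to 26.4 ± 8.52 CPM (SD, n = 5 per group; log2 fold change -1.17 ± 0.22 SE, edgeR adjusted p = 0.00981). Without aged mouse 4 the log2 fold change was -0.97 (edgeR adjusted p = 6.0e-05).

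The ratio of Col8a2 to Col8a1 counts was 0.742 ± 0.139 in young and 0.999 ± 0.511 in aged bone and did not differ beyond the spread (exact two-sided permutation test, p = 0.452, adjusted p = 0.565). In aged bone this ratio ran from 0.459 in mouse 4 to 1.85 in mouse 3, so the proportions of the 2 chains varied more between aged than between young mice, whose range was 0.654 to 0.981. No test was made of that spread.

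Col12a1, the gene of the fibril-associated type XII collagen, lies on the minus strand of chromosome 9 from 79598991 to 79718831 (ENSMUSG00000032332.17) and has 66 exons in the transcript with the most exons. It was at 964, 1215, 1144, 1299 and 907 CPM in young and at 218, 256, 187, 86.6 and 248 CPM in aged mice. The highest aged library lay far below the lowest young library, and aged mouse 4 was the lowest by a wide margin. Col12a1 fell from 1106 ± 166 to 199 ± 68.5 CPM (SD, n = 5 per group; log2 fold change -2.47 ± 0.25 SE, edgeR adjusted p = 2.3e-04), which ranked 26 by size among the falls of all genes tested. Without aged mouse 4 the log2 fold change was -2.28.

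Col14a1, the gene of type XIV collagen, lies on the plus strand of chromosome 15 from 55307750 to 55520803 (ENSMUSG00000022371.16, 48 exons). It was at 17.1, 24.9, 20.6, 23.2 and 25.3 CPM in young and at 11.8, 14.5, 9.48, 21.5 and 11.8 CPM in aged mice. Aged mouse 4, the lowest aged library for most of the 10 genes, was the highest here and lay above young mice 1 and 3, so the groups overlapped. Col14a1 fell from 22.2 ± 3.41 to 13.8 ± 4.64 CPM (SD, n = 5 per group; log2 fold change -0.68 ± 0.19 SE, edgeR adjusted p = 0.0496).

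This call sat just inside the threshold and ended in 13 of 22 alternatives, among them 8 of the 10 that left out a library (edgeR adjusted p up to 0.124). Without aged mouse 4 the log2 fold change of Col14a1 was -0.90 (edgeR adjusted p = 0.00284).

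Col16a1, the gene of type XVI collagen, lies on the plus strand of chromosome 4 from 130047840 to 130099283 (ENSMUSG00000040690.15) and has 70 exons in the transcript with the most exons. It was at 221, 221, 305, 230.0 and 233 CPM in young and at 57.3, 83.9, 94.0, 44.5 and 88.4 CPM in aged mice. Young mouse 3 stood above the other young libraries, which were close to each other, and the groups did not overlap. Col16a1 fell from 242 ± 35.8 to 73.6 ± 21.5 CPM (SD, n = 5 per group; log2 fold change -1.72 ± 0.19 SE, edgeR adjusted p = 3.2e-04).

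Col12a1 and Col14a1 had the largest and the smallest change of the 3 fibril-associated genes, and their ratio, taken with those changes known, restates that difference within each library. The ratio of Col14a1 to Col12a1 counts was 0.0177, 0.0205, 0.0180, 0.0179 and 0.0279 in young mice 1 to 5 and 0.0541, 0.0567, 0.0507, 0.248 and 0.0474 in aged mice 1 to 5. Every aged library lay above every young library, and aged mouse 4 far above the others. The ratio was higher in aged bone by 1.83 on the log2 scale, or 3.55-fold (exact two-sided permutation test, p = 0.00794, the smallest that 5 against 5 libraries allow, adjusted p = 0.0397 over 5 ratios). Without aged mouse 4 the log2 difference was 1.38 (exact permutation test, adjusted p = 0.0397), and without any other single library the adjusted p was 0.0794, the smallest that 9 libraries allow if only this ratio differs.

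**Figure D2:**
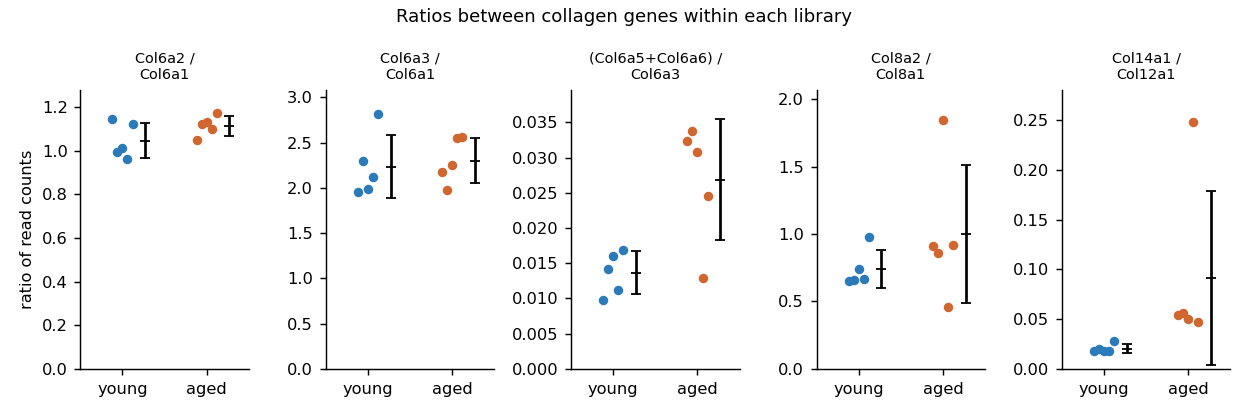
Ratios of read counts between collagen genes within each library, from 0 on a linear axis of its own in each panel, with a point per library and the mean ± SD beside it (5 young, 5 aged). The Col6a2/Col6a1 and Col6a3/Col6a1 ratios overlap between the ages, whereas every aged Col14a1/Col12a1 ratio lies above the young range of 0.0177 to 0.0279, with aged mouse 4 at 0.248.

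Some genes of the annotation overlap these loci, and the sources used here do not say whether reads were counted by strand. Gm36970 lies within Col6a3 on the same strand (9 to 44 counts per library), 4930562D21Rik antisense to Col12a1 (18 to 117 counts) and 1700040F17Rik, Gm18787 and Gm49257 opposite to Col14a1 (0 to 12 counts). These counts are small beside the 3964 to 23161 of Col6a3, the 3699 to 62298 of Col12a1 and the 250 to 1114 of Col14a1.

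Between genes, levels were compared as CPM per kilobase of exonic length. In young bone the order was Col12a1 (72.6 ± 10.9), Col6a1 (48.1 ± 9.75), Col6a3 (38.4 ± 3.88), Col16a1 (35.9 ± 5.31), Col6a2 (26.3 ± 4.81), Col8a2 (13.2 ± 0.821), Col8a1 (10.4 ± 1.87), Col14a1 (3.17 ± 0.486), Col6a5 and Col6a6, in CPM per kilobase. The ranges of neighbours over the 5 libraries did not overlap for Col16a1 over Col6a2, Col6a2 over Col8a2, Col8a1 over Col14a1 and Col14a1 over Col6a5, and those of the other neighbours did.

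In aged bone Col12a1, at 13.1 ± 4.50 CPM per kilobase, stood after Col6a1 (16.6 ± 3.01) and Col6a3 (13.9 ± 1.98) and before Col16a1 (10.9 ± 3.19) and Col6a2 (9.74 ± 1.89). The ranges of all neighbours in the aged order overlapped except Col14a1 (1.97 ± 0.661) over Col6a6 (0.266 ± 0.0928).

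The 10 genes together took 0.256% ± 0.0401 of all counts in young and 0.0634% ± 0.0182 in aged libraries, with no overlap (SD, n = 5 per group; exact two-sided permutation test, p = 0.00794). Col12a1 took a smaller and Col6a3 a larger part of that sum in aged than in young bone. Col12a1 made up 45.9% ± 3.03 of the counts of the 10 genes in young and 29.1% ± 5.53 in aged bone. Col6a3 made up 19.2% ± 0.946 in young and 25.4% ± 3.49 in aged bone, and for both genes the groups did not overlap. Shares of a sum are tied to each other, so a lower share of Col12a1 raises the others.

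**Figure D3:**
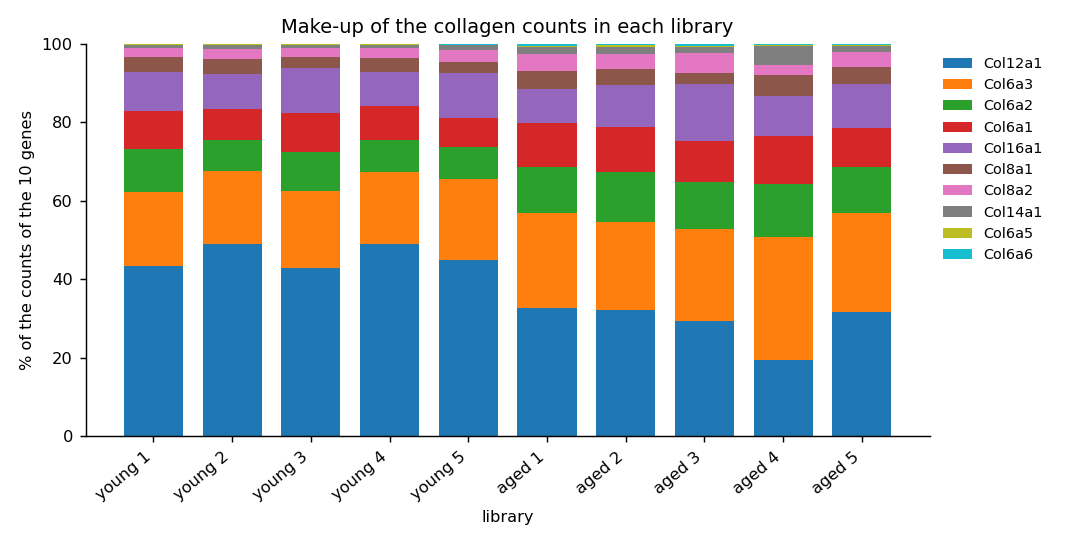
Share of the counts of the 10 collagen genes that each gene took, in percent, with a bar for each of the 5 young and 5 aged libraries. Col12a1 takes 42.8% to 49.1% in young and 19.5% to 32.8% in aged libraries, and aged mouse 4 has the smallest Col12a1 and the largest Col6a3 and Col14a1 segments.

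Among the counts of all 44 collagen chains, the 10 genes took 3.45% ± 0.746 in young and 2.38% ± 0.730 in aged bone (exact two-sided permutation test, p = 0.0794). With Col1a1 and Col1a2, the chains of the main bone collagen, left out of the total, the share differed by -4.42 percentage points, aged minus young (exact two-sided permutation test, p = 0.0159).

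Each gene was also set against Col1a1 within its library. Col1a1 itself fell from 41535 ± 13126 to 17790.0 ± 6839 CPM (log2 fold change -1.22 ± 0.30 SE, edgeR adjusted p = 0.0267). Col12a1 counts were 2.86% ± 0.872 of those of Col1a1 in young and 1.22% ± 0.527 in aged bone, with no overlap (exact two-sided permutation test, p = 0.00794, adjusted p = 0.0794 over the 10 genes). The adjusted p of the other 9 genes was 0.476 or more, so 0 of the 10 passed in this comparison. The exact p of Col12a1, 0.00794, is the smallest these libraries allow. Over the 10 genes its adjusted p could not fall below 0.0794 if only Col12a1 differs. The missing call of Col12a1 therefore does not show an equal ratio.

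Each gene was then set against Col3a1, the chain of type III collagen, which itself was lower (log2 fold change -2.69 ± 0.24 SE, edgeR adjusted p = 7.5e-05). Col3a1 fell more than any of the 10, so higher ratios to it restate its fall and show no gain of the 10 genes. The ratio was higher in aged bone for 9 of the 10, 8 of them without overlap (exact permutation test, adjusted p = 0.00992 for 8 and 0.0265 for Col8a1). Col12a1 did not pass there, at 39.5% ± 5.81 of the Col3a1 counts in young and 45.9% ± 6.94 in aged bone (exact permutation test, adjusted p = 0.159).

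Genes known to work with these collagens were read from 5 textbook lists of 57 genes, 54 of them tested. Of these, 23 were lower in aged bone, 0 were higher and 31 did not pass, with a median log2 fold change of -0.80 beside 0.01 for all genes. At an unadjusted p under 0.05, 1 was higher with edgeR, which was Col6a4, 1 with DESeq2 and 2 with limma-voom, and after adjustment both other tools called 0 higher and 30 and 23 lower.

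Among the other fibril-associated, type VI and short-chain collagens, 3 of 8 tested were lower and 0 higher (median log2 fold change -0.98). All 3 are cartilage genes. Col9a1 and Col9a2, chains of type IX collagen, were lower with log2 fold changes of -4.35 and -3.56 (adjusted p = 0.00887 and 0.00728 with edgeR), and Col10a1, the type X chain of hypertrophic cartilage, with -1.79 (adjusted p = 0.0376). The call of Col10a1 ended in 11 of 22 alternatives, 8 of them without a single library, for example without aged mouse 4 (log2 fold change -1.81, edgeR adjusted p = 0.0962). The young libraries spread widely for these genes, from 0.848 to 23.1 CPM for Col9a1. The other 5 did not pass. Col9a3, a further type IX chain, had a log2 fold change of -1.56 (edgeR adjusted p = 0.122). Col22a1, at 203 ± 48.3 CPM in young and 176 ± 44.7 CPM in aged bone, had one of -0.20 (edgeR adjusted p = 0.499). Those of Col19a1, Col20a1 and Col6a4 were -0.39, 0.34 and 0.67 (edgeR adjusted p = 0.419, 0.196 and 0.172).

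Of the 11 fibril-forming chains, 8 were lower and 0 higher (median log2 fold change -1.22). Beside Col3a1, the smallest p belonged to Col5a1, a chain of the type V collagen that nucleates fibrils, and to Col11a1, a type XI chain. Col5a1 had a log2 fold change of -1.35 (adjusted p = 6.0e-04 with edgeR) and Col11a1 of -2.11 (adjusted p = 0.00153).

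Of 13 matrix proteins tested that bind these collagens or lie beside them, 5 were lower and 0 higher (median log2 fold change -0.81). Mfap2, a microfibril-associated glycoprotein, was lower with a log2 fold change of -1.33 (adjusted p = 4.2e-04 with edgeR). Matn2 and Matn4 encode matrilins, adaptors between filaments of the matrix, and were lower with -1.18 and -1.12 (adjusted p = 5.6e-04 and 0.00486).

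Of the 10 receptors, 2 were lower and 0 higher, and their median log2 fold change of -0.14 was the smallest of the 5 lists. Antxr1, a cell surface receptor for collagens, was lower with a log2 fold change of -0.89 (adjusted p = 7.8e-04 with edgeR). Itga11, the integrin subunit for fibrillar collagen on mesenchymal cells, was lower with -0.81 (adjusted p = 0.00578). Ddr2, a collagen-activated kinase, had a log2 fold change of -0.44 and did not pass (edgeR adjusted p = 0.0532).

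Of 12 processing enzymes and helpers, 5 were lower and 0 higher (median log2 fold change -0.54). Mmp2 and Mmp14, proteases that cut matrix proteins, were lower with log2 fold changes of -1.32 and -0.98 (adjusted p = 0.00379 and 0.00675 with edgeR). Pcolce, which enhances cleavage of procollagen ends, was lower with -0.91 (adjusted p = 0.00674).

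**Figure D4:**
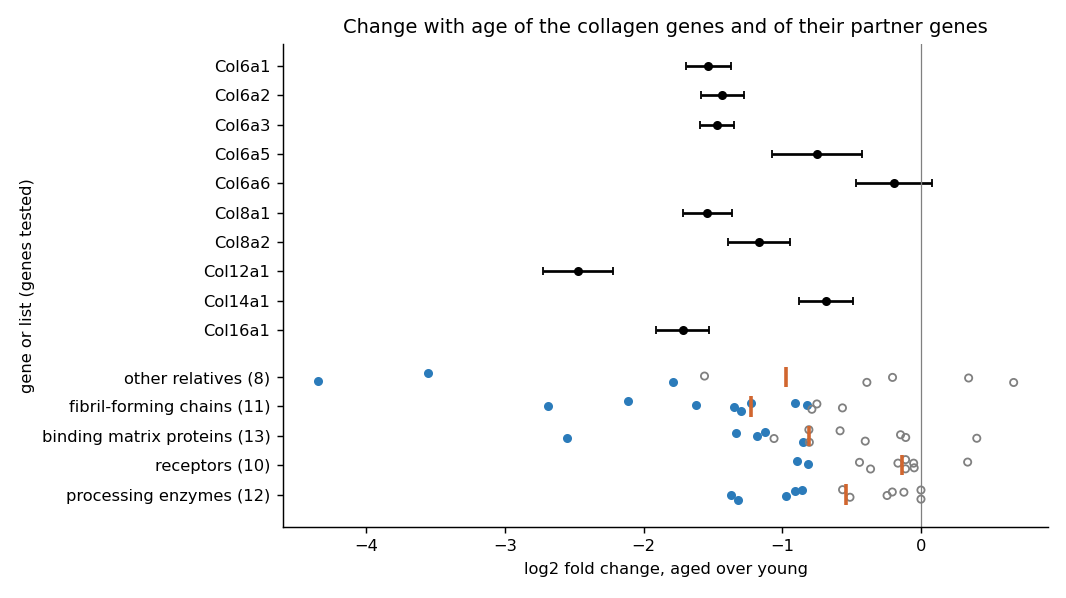
Log2 fold change of aged over young bone for the 10 collagen genes (points, with bars of 1 standard error) and for 5 lists of partner genes, where each circle is a gene, filled if its edgeR adjusted p was at most 0.05, and the vertical tick is the list median. Col12a1 lies furthest to the left of the 10 at -2.47 and Col6a6 next to 0 at -0.19, and the list medians run from -1.22 for the fibril-forming chains to -0.14 for the receptors.

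Genes were then ranked by how closely their profile over the 10 libraries followed that of the type VI chains or of Col12a1, as the root mean square difference of centred log2 CPM. Closest to the mean of Col6a1, Col6a2 and Col6a3 were Mfap2 (0.147), Apln (0.152), Col5a1 (0.161), Ptgfrn (0.205) and Adam12 (0.215). Closest to Col12a1 were Loxl2 (0.191), Lrrc15 (0.214), Col3a1 (0.225), Postn (0.241) and Capn6 (0.262). The 10 points of a profile are the libraries used for the age comparison, so these genes resemble the collagens in their fall with age by the choice itself.

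The makeup of the samples was read from 11 lists of cell type markers, as sums of CPM. The 9 markers of fibroblasts and periosteum summed to 695 to 912 CPM in young and 273 to 416 CPM in aged libraries, with no overlap (exact two-sided permutation test, p = 0.00794, adjusted p = 0.0873 over the lists), and 2 of them were lower and 1 higher. Postn, at 527 ± 81.0 CPM in young bone, made up most of that sum. For the fibroblast and periosteum list, 0.0873 is the smallest adjusted p that the 11 lists allow if only this list differs. The 9 osteoblast markers summed to 1103 to 2424 CPM in young and 370 to 1379 CPM in aged libraries (exact two-sided permutation test, p = 0.0159, adjusted p = 0.0873), and 3 were lower and 0 higher.

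The 17 muscle markers summed to 9529 to 29953 CPM in young and 14430 to 37807 CPM in aged libraries (exact two-sided permutation test, p = 0.222), so muscle RNA was present in every library. With the mean of the muscle markers as a covariate, Col12a1, Col6a1, Col6a2, Col6a3, Col8a1, Col8a2 and Col16a1 stayed lower, and the call of Col14a1 ended (edgeR adjusted p = 0.0787). With that covariate the log2 fold change of Col6a6 was -0.68 (edgeR adjusted p = 0.0620), against -0.19 without it, and still did not pass. The 4 tendon markers summed to 18.9 to 32.1 CPM in young and 12.7 to 27.4 CPM in aged libraries. Of the 8 chondrocyte markers 6 were tested, 3 of which were lower (median log2 fold change -2.24), and their sums were 164 to 975 CPM in young and 190.4 to 548 CPM in aged libraries (exact two-sided permutation test, p = 0.238). The 5 Schwann cell markers summed to 62.1 to 75.4 CPM in young and 62.9 to 92.1 CPM in aged libraries (exact two-sided permutation test, p = 0.0476, adjusted p = 0.175). The sums of the osteocyte, endothelial, smooth muscle, adipocyte and marrow lists overlapped between the groups, with an exact permutation p of 0.111 or more.

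Aged mouse 4 had the lowest sums of its group for the muscle (14430 CPM), fibroblast and periosteum, osteocyte, tendon and smooth muscle lists and the highest for endothelium (766 CPM). No marker of any list was at 0 in every library, and the part of these cell types in the differences of the 10 genes was not tested.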

How the data were processed

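RNA of flushed, pulverized femurs was sequenced as 1 library per mouse after rRNA depletion and poly-A selection. The deposited table gives raw read counts for each gene, produced by the authors with Cutadapt v2.10, STAR v2.7.8a on GRCm38.p6 and featureCounts v2.0.2. The labels name a human build, but the identifiers are mouse Ensembl genes. Neither the annotation release nor the strand setting of the counting is given in the sources used here. The members and the gene lists were chosen with earlier results of these data known.

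Counts were analysed with edgeR 4.0.16 in R 4.3.3 (filter with minimum count 10 and minimum total 15, TMM, robust quasi-likelihood fit, age group only), with Benjamini-Hochberg adjustment. Standard errors (SE) were derived from the log2 fold change and the F statistic. Per-kilobase levels used the exonic length given in the table. Ratios and shares were compared by two-sided exact permutation over the 126 splits of 10 libraries, with 0.5 added to counts in ratios. For profiles, CPM were log2-transformed after adding a prior count of 2. p-values judge the difference between the ages against the spread between mice. The median standard error of all genes, 0.178 on the log2 scale, gives the precision at this depth.

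Alternatives were other scalings and filters, DESeq2 1.42.0, limma-voom 3.58.1, a muscle covariate, Col1a2 or Col3a1 as reference, a block for the replicate number, and omission of single libraries. The edgeR steps were tested on simulated data. Genes named are the 10, the 3 with the smallest p in each partner list and the 5 most like the type VI chains or Col12a1. Col6a4, Col9a3, Col19a1, Col20a1, Col22a1, Col1a1 and overlapping genes were named beyond this rule. Tables and figures used Python 3.11.15, numpy 2.4.6, pandas 2.3.3, scipy 1.17.1 and matplotlib 3.10.9. Col21a1 was not analysed here.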

Additional observations from a re-analysis of the deposited data

Results flagged for a closer look

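In 34 groups of 5 values (the CPM of a gene, or a ratio or share, in young or aged libraries), 5 held a library whose gap to its nearest neighbour was large beside the range of the group. By chance about 1 in 20 groups is flagged this way. Col8a2 was at 11.4 CPM in aged mouse 4, with the next aged library at 28.4 CPM. Col16a1 was at 305 CPM in young mouse 3, with the next young library at 233 CPM. The ratio of Col8a2 to Col8a1 counts was 0.981 in young mouse 5, with the next at 0.744. The ratio of Col14a1 to Col12a1 counts was 0.0279 in young mouse 5, with the next at 0.0205, and 0.248 in aged mouse 4, with the next at 0.0567.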

How the results depend on the processing

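The count of the 10 genes called lower was 7 or 8 in all 24 alternatives and the count called higher 0 in all of them, and 16 to 30 partner genes were lower. Col6a1, Col6a2, Col6a3, Col8a1, Col8a2, Col12a1 and Col16a1 kept their call in 22 alternatives each (log2 fold change -2.64 to -0.97, adjusted p up to 0.0299). The call of Col14a1 ended with DESeq2 size factors (edgeR adjusted p = 0.0563), upper quartile scaling (0.0571), total counts alone (0.0505), no filter (0.0520) and the muscle covariate (0.0787), and was kept with DESeq2 (0.0193) and limma-voom (0.0411). Scaling by total counts moved the median of all genes to -0.16. Without single libraries the log2 fold change of Col6a6 ran from -0.33 to 0.0054, turning positive only without aged mouse 4, and it was -0.68 with the muscle covariate. The call of Col10a1 ended in 11 of 22 alternatives, that of Col9a1 with limma-voom (0.0690), and Ddr2 passed in 9. The log2 difference of the Col14a1/Col12a1 ratio was 1.38 to 1.97 without single libraries, where the smallest adjusted p is 0.0794 if only that ratio differs, and that of (Col6a5+Col6a6)/Col6a3 was 0.82 to 1.17. Relative to Col3a1 in place of Col1a1, 9 genes differed. Col3a1 fell more than any of the 10, and the direction turned for Col6a1 (1.24), Col6a2 (1.34), Col6a3 (1.29), Col8a1 (1.21), Col8a2 (1.52), Col12a1 (0.21) and Col16a1 (1.01). Col8a2 turned also relative to Col1a2 (0.090) and ranged from -0.22 to 0.28 without single libraries. The share of collagen counts differed by -4.42 percentage points without Col1a1 and Col1a2. With the replicate number as a block, 8 of the 10 genes and 24 partner genes were lower. The numbers do not pair the mice (correlations of same-numbered libraries -0.15 to 0.17, and only number 3 correlated best with its own). Col6a5 and Col6a6 had few counts, 32 to 171 and 45 to 148 per library, and their levels also varied between mice. The SD of Col6a5 was 29.1% of the mean CPM in young and 46.8% in aged mice, and that of Col6a6 27.4% and 34.9%. For both genes a missing call does not show equal levels.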
